A study of Mus musculus with 16 samples.

Results

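The senescence-associated secretory phenotype is the set of proteases, growth factors, cytokines and binding proteins that senescent cells release, together with surface receptors whose levels change with it. The gene set described here holds 35 genes of that programme, taken from a list of symbols and matched to the rows of the count table by Ensembl identifier. Of these, 34 had 10 or more counts summed over all libraries and were kept, out of 22573 such genes among the 49671 gene rows of the table. The remaining gene, Ereg, had 0 counts. The 34 genes fall into plasminogen activation, insulin-like growth factor (IGF) binding proteins, matrix proteases and their inhibitors, cytokines, growth factors, cell surface receptors, and nuclear proteins tied to senescence.

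Senescent cells have left the cell cycle for good but stay metabolically active, and p16, a product of Cdkn2a that blocks cyclin-dependent kinases, is one of the proteins that holds them there. Their secretions act on neighbouring cells by cutting the matrix, freeing bound growth factors and engaging cytokine and death receptors. Most of these genes are not specific to senescence: in brain, activated microglia, astrocytes, vessel cells and choroid plexus also express many of them.

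Bulk RNA of the hippocampus came from female mice aged 8 months, in 4 groups of 4 libraries: WT, wildtype for both PS19 and p16; p16KO, with p16 knocked out; PS19, with the PS19 transgene and intact p16; and PS19_p16KO, with the transgene and without p16. In PS19 animals the mouse prion protein promoter drives mutant human tau, which makes them a model of tau pathology. The labels do not say which allele the p16 knockout is, nor that the 4 samples of a group are separate animals, and p-values therefore cover only the spread among libraries, which may be technical. Libraries are named by group and replicate number, as in PS19_1.

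Libraries held 18485552 to 22311322 gene counts, and levels are given as CPM, a gene's count divided by the library's gene counts and scaled to 1000000. Cdkn2a was near the detection limit throughout, with 8 counts over the WT libraries, 18 over PS19, 3 over p16KO and 2 over PS19_p16KO. Markers of hippocampal neurons were present in every library, at a summed 1053 to 1329 CPM over 8 genes. Choroid plexus, the epithelium that makes cerebrospinal fluid and lies against the hippocampus, was represented unevenly: its 12 markers summed to 960.3 CPM in WT_1, 3699.9 in p16KO_4 and 6168 in PS19_p16KO_3, against 45.4 to 221 in the other 13, with at most 1 of the 12 at 0 in a library. These 3 libraries, from 3 different groups, are called choroid-rich below. Markers of microglia and macrophages differed by group, with 12 genes summing to 989, 792, 486 and 642 CPM in PS19_1 to PS19_4, 346 to 390.2 in WT, 381 to 462 in p16KO and 409.6 to 458 in PS19_p16KO, none of them at 0 in any library. Bulk values cannot tell fewer cells of a type from less RNA per cell.

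Scaled by length, as CPM per kilobase of merged exon, mean levels over the 16 libraries spanned several orders of magnitude. The most abundant members were Timp2, a secreted inhibitor of matrix metalloproteases, at 86.7, Igfbp5 at 37.5, Hmgb1 at 36.9, Igfbp2 at 23.9 and Serpine2 at 18.9. The place of Igfbp2 rests on the choroid-rich libraries: over the other 13 its mean was 14.4, below Serpine2 (19.3), Igfbp4 (16.4) and Ets2 (15.3). Members called in a comparison, or close to it, lay far lower on the same scale, with Plau at 1.21, Tgfb1 at 1.11, Angpt1 at 1.65, Icam1 at 0.793 and Fas at 0.626. Inflammatory cytokines often named for the secretory phenotype were barely detected, Tnf at 0.0909 and Il6 at 0.0133. Exons of 9 kept members overlap another annotated gene: Igfbp7 with Polr2b, Mmp12 with Mmp1b, Timp3 with Syn3, Hgf with Gm43489, Icam1 with Gm47079, Hmgb1 with Mm2pr and Uspl1, Fgf2 with Gm43439 and Nudt6, Tgfb2 with Gm29491, and Angpt1 with Gm17473. No source used here gives the counting's strand setting, and reads within the shared bases of such pairs cannot be told apart. How much of each gene is shared was not measured.

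**Figure D1:**
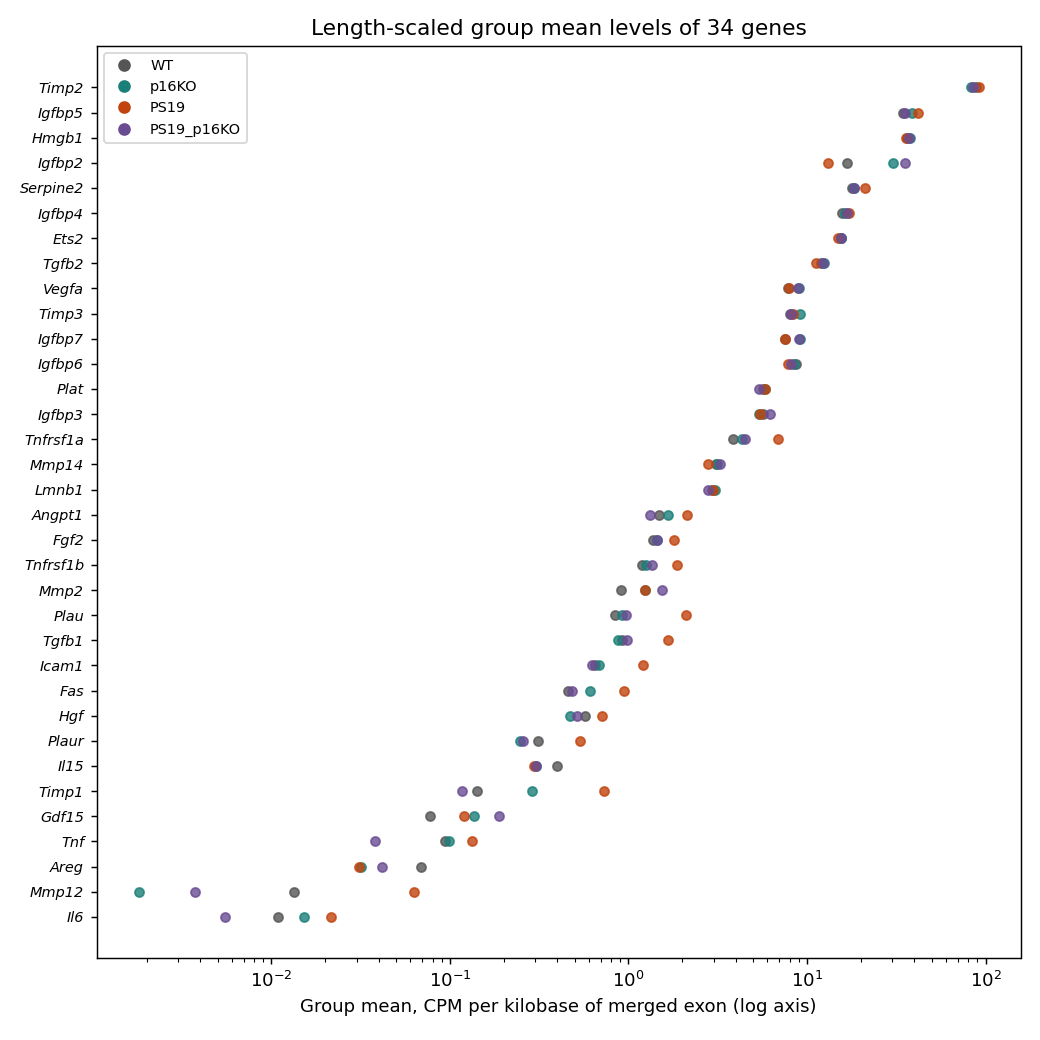
Group mean levels of the 34 kept genes in CPM per kilobase of merged exon (log axis), one point per group, genes ordered by their mean over all libraries. Timp2 leads at 86.7 and Il6 is last at 0.0133. The PS19 mean lies to the right of the other 3 for Plau, Tgfb1, Angpt1, Icam1, Fas and Plaur. It does so for other members too, among them Hgf, Fgf2, Igfbp5 and Timp2.

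Of the 34 genes, 28 were matched to a promoter sequence in RefSeq (GRCm38.p6), and Plau, Plat, Mmp2, Angpt1, Lmnb1 and Il15 were not matched. The 4 sequences below belong to the matched genes whose PS19 libraries all lay above the WT libraries, and each is the 250 bases before the gene's start, 5′ to 3′. Capitals mark matches to short motifs of factors known for inducible genes in immune cells: TGANTCA for AP-1 and GAGGAAG for PU.1, searched on both strands.
Plaur, chr7:24462233-24462482, forward strand: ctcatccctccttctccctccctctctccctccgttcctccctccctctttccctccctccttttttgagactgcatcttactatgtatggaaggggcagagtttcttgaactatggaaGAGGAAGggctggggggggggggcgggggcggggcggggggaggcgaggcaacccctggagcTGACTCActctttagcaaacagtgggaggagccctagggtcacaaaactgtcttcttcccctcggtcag
Tgfb1, chr7:25686752-25687001, forward strand: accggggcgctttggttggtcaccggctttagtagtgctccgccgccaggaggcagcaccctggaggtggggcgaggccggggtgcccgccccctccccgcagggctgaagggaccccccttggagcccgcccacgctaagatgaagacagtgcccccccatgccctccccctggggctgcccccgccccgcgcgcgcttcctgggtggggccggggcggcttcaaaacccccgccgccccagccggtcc
Hgf, chr5:16553245-16553494, forward strand: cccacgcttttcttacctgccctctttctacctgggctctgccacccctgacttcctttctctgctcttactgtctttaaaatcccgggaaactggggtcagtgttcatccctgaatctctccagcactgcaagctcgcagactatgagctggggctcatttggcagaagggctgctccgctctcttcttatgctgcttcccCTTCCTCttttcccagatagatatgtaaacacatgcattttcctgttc
Fas, chr19:34290409-34290658, forward strand: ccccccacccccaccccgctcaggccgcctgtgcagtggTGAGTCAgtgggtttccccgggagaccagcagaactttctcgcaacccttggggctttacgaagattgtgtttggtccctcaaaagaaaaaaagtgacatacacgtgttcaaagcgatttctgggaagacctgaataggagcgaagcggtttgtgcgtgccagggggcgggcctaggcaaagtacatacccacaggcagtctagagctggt
The Plaur window held an AP-1 match (TGACTCA) 69 bases and a PU.1 match (GAGGAAG) 131 bases before the start. The Hgf window held a PU.1 match on the other strand (CTTCCTC) at 48 bases, the Fas window an AP-1 match (TGAGTCA) at 211 bases, and the Tgfb1 window neither. Over the promoters of all matched members, 14.71% held AP-1 letters and 20.59% PU.1 letters, against 6.749% and 10.61% of 32851 mouse promoters of the same length. An NF-kB motif was in 2.941% of the members' promoters, that of Il6, against 4.109% of all, and a TATA box (TATAAA) in 14.71% against 12.37%. These are matches of letters only, over 34 member promoters. AP-1 letters were in 5 of them (Fas, Igfbp2, Il6, Mmp12 and Plaur). PU.1 letters were in 7 (Areg, Hgf, Igfbp2, Mmp12, Plaur, Tnf and Tnfrsf1b). Whether these shares differ from those of all promoters was not tested.

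In PS19 hippocampus, Plau was 2.48-fold and Tgfb1 1.79-fold higher than in WT, and no member was called lower. In PS19_p16KO, Plau stood at 46.5% and Angpt1 at 62.5% of their PS19 levels, and no member was called higher. Calls are adjusted p-values under 0.05 from an edgeR quasi-likelihood fit of all 16 libraries, with Benjamini-Hochberg adjustment over 16372 genes. In the first comparison 2 of the 28 members tested were called higher, where 1.56% of all genes were (0.055% lower and 1.61% in either direction). Fitted values were positive for 19 of 28 members and 7914 of 16372 genes. The median log2 fold change was 0.09 against -0.01 over all genes. All 4 PS19 libraries lay above all 4 WT libraries in 6 members, Plau, Plaur, Tgfb1, Hgf, Angpt1 and Fas, where 3.52% of all genes showed this, and 0 members lay wholly below WT, where 1.47% of genes did. In the second comparison 2 of 28 were called lower, where 0.776% of all genes were (0.0489% higher and 0.825% in either direction). Values were positive for 11 of 28 members and 8291 of 16372 genes, and the median was -0.09 against 0.0018 over all genes. All 4 PS19_p16KO libraries lay below all 4 PS19 libraries in 3 tested members, Plaur, Hgf and Angpt1, where 2.63% of all genes showed this, and 0 members lay wholly above PS19, where 1.44% of genes did. The comparisons share the 4 PS19 libraries and are not independent of each other. The members were chosen with earlier results of these data known, so their shares beside all genes are a description only. Without WT_1, WT_2, PS19_1 or PS19_2 the first comparison called 1 member (Plau) and without PS19_3 it called 9, while the second called 0 without PS19_1, PS19_2, PS19_p16KO_1, PS19_p16KO_2 or PS19_p16KO_4, 7 without PS19_3 and 3 (Angpt1, Plau and Tgfb1) without PS19_4. A fit of only the groups compared called no member in either, with adjusted p = 0.0692 for Plau and 0.0660 for Tgfb1 in the first and 0.239 for Plau and 0.179 for Angpt1 in the second.

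**Figure D2:**
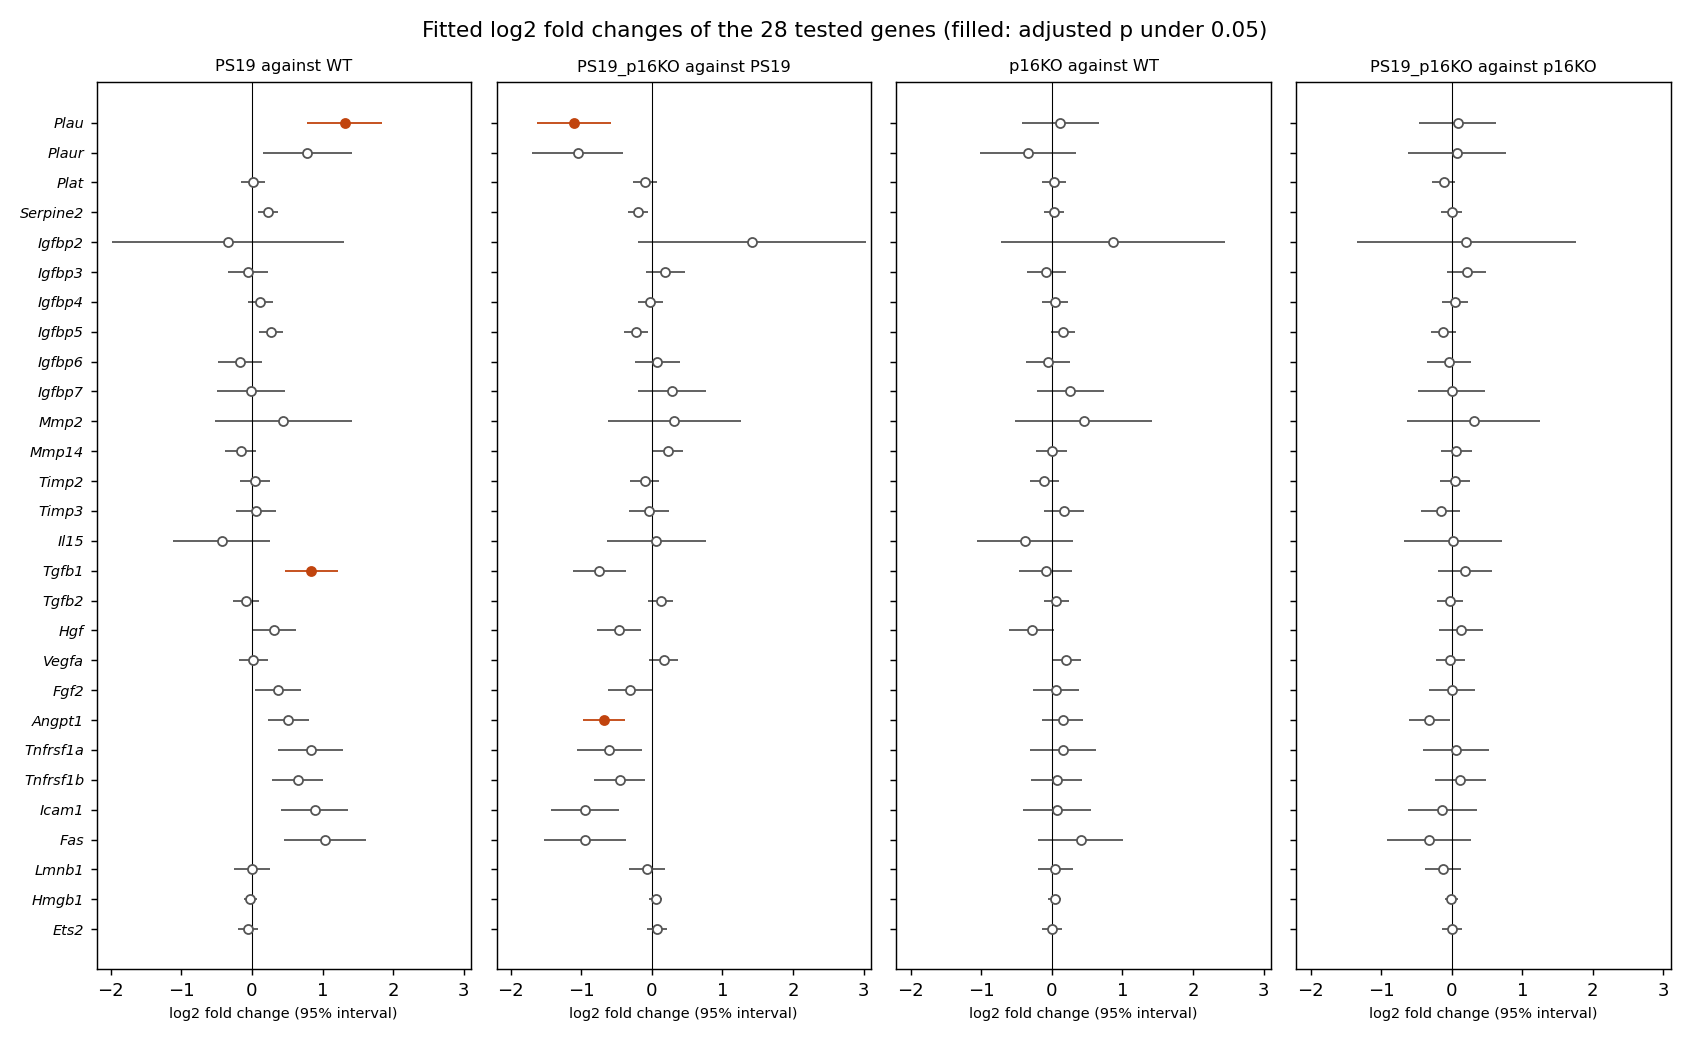
Fitted log2 fold changes of the 28 tested members with 95% intervals in 4 pairwise comparisons, filled where the adjusted p was under 0.05. Plau (1.31) and Tgfb1 (0.84) are filled in PS19 against WT, Plau (-1.10) and Angpt1 (-0.68) in PS19_p16KO against PS19, and none in the comparisons of p16KO.

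Plasminogen activation begins with Plau (urokinase, chr14:20836660-20843385 in GRCm38), a secreted protease that turns plasminogen into plasmin. Its levels were 2.31, 2.24, 1.69 and 1.70 CPM in the WT libraries and 6.93, 6.60, 2.64 and 3.70 in the PS19 libraries, in replicate order. All PS19 values lay above all WT values, but PS19_1 and PS19_2 were far above PS19_3. The log2 fold change was 1.31 ± 0.25 (SE), adjusted p = 0.00776, and the call held without any 1 of the 8 libraries. In PS19_p16KO the levels were 2.18, 2.15, 2.84 and 2.002 CPM, so that PS19_p16KO_3 exceeded PS19_3 and the groups overlapped. The difference from PS19 was -1.10 ± 0.25 (adjusted p = 0.0387). This second call was lost without PS19_1 (-0.90, adjusted p = 0.185), without PS19_2 (-0.94, 0.194) and without each of PS19_p16KO_1 to PS19_p16KO_4 (adjusted p = 0.117, 0.118, 0.0506 and 0.116), and without the 3 choroid-rich libraries it was -1.21 ± 0.27 with adjusted p = 0.0586. It was also lost with a batch term for a digit in the library names, whose meaning the labels do not give (-1.06, adjusted p = 0.0821) and by limma-voom (-0.96, adjusted p = 0.123). The PS19 libraries had the same order in the microglial marker sum as in Plau, and the part of microglial RNA in this result was not tested.

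Plaur, the membrane receptor that holds urokinase at the cell surface, was lower in count, with 6 to 33 counts a library. It measured 0.734, 0.717, 0.952 and 0.849 CPM in WT, 1.77, 1.02, 1.51 and 1.34 in PS19 and 0.758, 0.472, 0.643 and 0.811 in PS19_p16KO. No PS19 library overlapped either group, and PS19_2, the highest but one for Plau, was the lowest of the 4 for Plaur. The fitted differences were 0.79 ± 0.30 against WT (adjusted p = 0.331) and -1.05 ± 0.31 for PS19_p16KO against PS19 (adjusted p = 0.151), and neither passed. Plat, the tissue-type activator made by neurons and vessels, ranged from 30.1 to 41.0 CPM over all libraries, and its difference between PS19 and WT was 0.017 with a 95% interval of -0.15 to 0.18. Serpine2, protease nexin-1, an inhibitor of thrombin and plasminogen activators, measured 181, 202, 151 and 165 CPM in PS19 against 153, 142, 145 and 155 in WT. Only PS19_3 fell inside the WT range, and the difference of 0.23 ± 0.068 did not pass (adjusted p = 0.127), nor did that of -0.20 ± 0.068 in PS19_p16KO against PS19 (adjusted p = 0.287). Without PS19_3, the lowest PS19 library for Serpine2, both passed, at 0.29 (adjusted p = 0.0170) and -0.26 (adjusted p = 0.0476). With other libraries left out in turn, adjusted p reached 0.468 and 0.813.

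**Figure D3:**
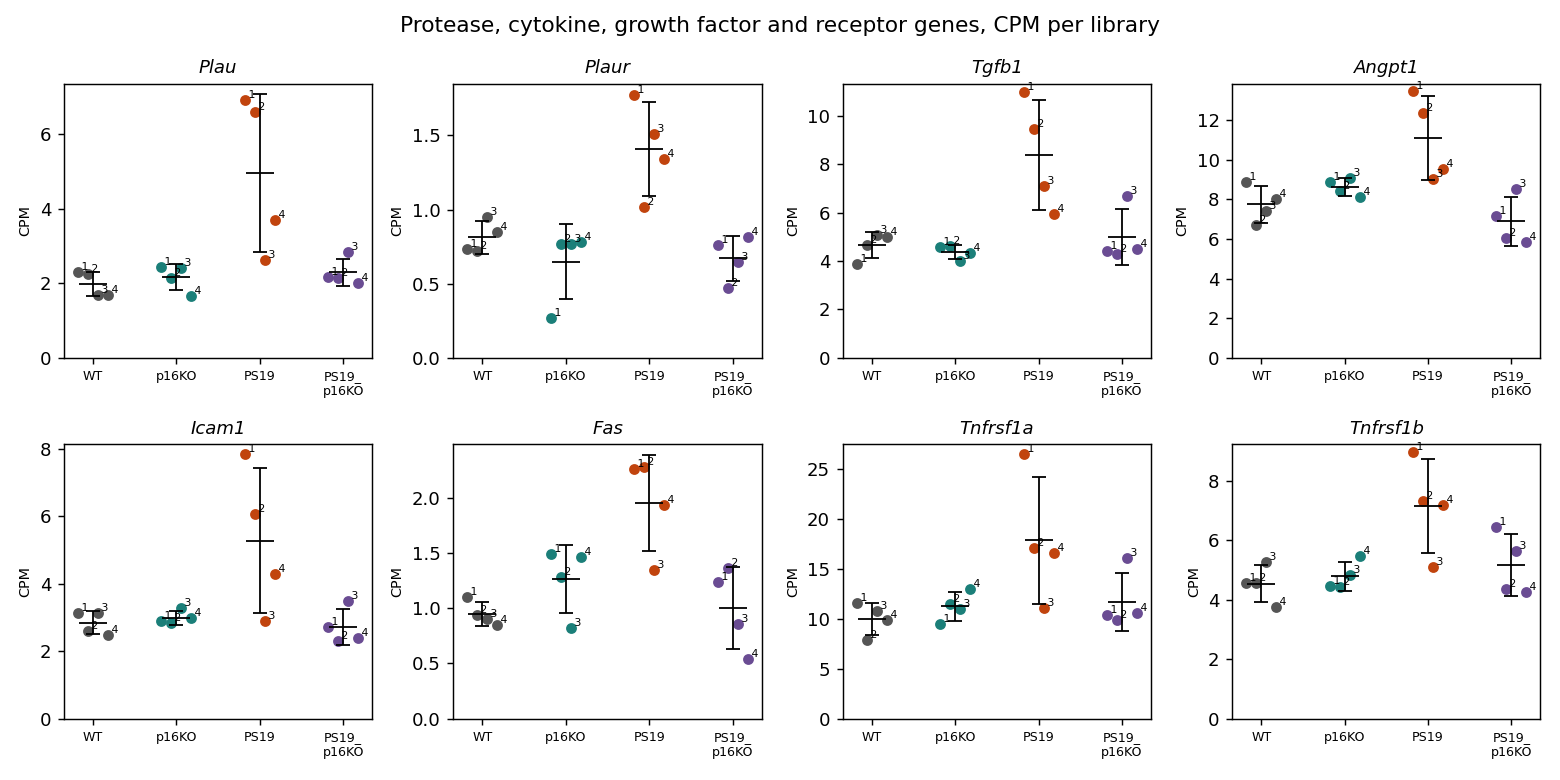
CPM per library for 8 members, points numbered by replicate, bars the mean ± SD of 4 libraries. PS19_1 is the highest library for Plau, Plaur, Tgfb1, Angpt1, Icam1, Tnfrsf1a and Tnfrsf1b, and PS19_3 is the lowest PS19 library for Plau (2.64 CPM), Angpt1 (9.04), Icam1 (2.91), Fas (1.35), Tnfrsf1a (11.1) and Tnfrsf1b (5.11).

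Among the cytokines, Tgfb1 (chr7:25687002-25705077), the latent growth factor that in brain comes largely from microglia, was higher in PS19. It measured 3.88, 4.66, 5.08 and 4.99 CPM in WT and 11.0, 9.46, 7.10 and 5.95 in PS19, with no overlap. The log2 fold change was 0.84 ± 0.18 (adjusted p = 0.0150). The call was lost without WT_1 (0.75, adjusted p = 0.0544), WT_2 (0.84, 0.0562), PS19_1 (0.68, 0.0959) or PS19_2 (0.78, 0.0666). In PS19_p16KO it measured 4.41, 4.299, 6.70 and 4.49 CPM, and the choroid-rich PS19_p16KO_3 lay above PS19_4. The difference from PS19 was -0.74 ± 0.18 and just missed the threshold (adjusted p = 0.0553). It passed without PS19_3 (0.0257), PS19_4 (0.0234) or PS19_p16KO_3 (0.0260), and without the 3 choroid-rich libraries together (-0.90 ± 0.18, adjusted p = 0.0359). With other libraries left out in turn, adjusted p for Tgfb1 reached 0.242. Its relative Tgfb2, made by neurons and glia, stood at 69.0 ± 3.17 CPM in WT and 65.3 ± 5.56 in PS19 (SD, n = 4), a difference with a 95% interval of -0.26 to 0.10 on the log2 scale. Il15, a cytokine of lymphocyte survival, had 7 to 22 counts a library, and its interval for PS19 against WT ran from -1.11 to 0.26 on the log2 scale.

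Growth factors gave 1 called gene. Angpt1 (chr15:42424723-42676977), angiopoietin-1, the ligand of the endothelial receptor Tek that steadies vessels, measured 13.4, 12.3, 9.04 and 9.54 CPM in PS19 and 7.16, 6.03, 8.52 and 5.84 in PS19_p16KO. The groups did not overlap, and the difference of -0.68 ± 0.14 passed (adjusted p = 0.0234). Levels were 8.85, 6.68, 7.41 and 8.01 CPM in WT and 8.87, 8.43, 9.08 and 8.10 in p16KO. PS19 lay above WT in every library, by 0.51 ± 0.14, which did not pass (adjusted p = 0.0705). It did without PS19_3, the lowest PS19 library (0.60, adjusted p = 0.0228), and without the choroid-rich libraries (0.58 ± 0.14, adjusted p = 0.0380). Without PS19_1 the difference was 0.40 (adjusted p = 0.350). The call in PS19_p16KO against PS19 was lost without PS19_1 (adjusted p = 0.120), PS19_2 (0.106), PS19_p16KO_1 (0.0625), PS19_p16KO_2 (0.0917) or PS19_p16KO_4 (0.0897), and held without the choroid-rich libraries (-0.78 ± 0.14, adjusted p = 0.0315). Endothelial markers, which include Tek, summed to 200.8 to 232 CPM in WT, 180.0 to 226 in PS19 and 185 to 272 in PS19_p16KO, and none of the 11 was called in either comparison.

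Hgf, hepatocyte growth factor, the ligand of Met, measured 4.296, 4.39, 3.49 and 4.296 CPM in WT, 5.97, 4.71, 4.63 and 5.25 in PS19 and 3.32, 3.51, 4.40 and 3.57 in PS19_p16KO. PS19 lay above both groups without overlap, though the differences of 0.31 ± 0.15 (adjusted p = 0.509) and -0.47 ± 0.15 (adjusted p = 0.199) did not pass. Fgf2, basic fibroblast growth factor, made mainly by astrocytes in brain, had means of 9.33 ± 2.40 CPM in WT, 12.1 ± 1.70 in PS19 and 9.77 ± 1.30 in PS19_p16KO (SD, n = 4), with overlap between WT and PS19 and neither difference past the threshold (adjusted p = 0.393 and 0.627). Markers of astrocytes, 10 genes, summed to 4768 to 4885 CPM in WT, 5446 to 7995 in PS19 and 4123 to 4932 in PS19_p16KO. Of the 10, 1 was called higher in PS19 than in WT (median log2 fold change 0.22). In PS19_p16KO against PS19, 2 were called lower (median -0.22). The part of these markers in the Fgf2 values was not tested. Vegfa, the main growth factor of vessels, ranged from 28.2 to 43.3 CPM, and PS19 differed from WT by 0.018 with an interval of -0.19 to 0.22.

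The 4 receptors and adhesion molecules all had positive values in PS19 against WT and negative values in PS19_p16KO against PS19, and none passed either test. Icam1, an adhesion molecule of endothelium and glia bound by leukocyte integrins, measured 3.14, 2.60, 3.12 and 2.49 CPM in WT, 7.85, 6.07, 2.91 and 4.29 in PS19 and 2.70, 2.31, 3.48 and 2.38 in PS19_p16KO. PS19_3 lay inside the WT range and the other 3 above it. The differences were 0.89 ± 0.23 against WT (adjusted p = 0.0529) and -0.95 ± 0.23 for PS19_p16KO against PS19 (adjusted p = 0.0561). Without PS19_3, the lowest PS19 library, both passed, at 1.09 (adjusted p = 0.00237) and -1.15 (adjusted p = 0.00216). Without PS19_1, the highest, they were 0.63 (adjusted p = 0.308) and -0.69 (adjusted p = 0.263). Fas, the death receptor, measured 1.10, 0.941, 0.899 and 0.849 CPM in WT, 2.26, 2.28, 1.35 and 1.93 in PS19 and 1.23, 1.36, 0.858 and 0.541 in PS19_p16KO. No PS19 library overlapped WT, while PS19_p16KO_2 lay just above PS19_3. The Fas differences were 1.03 ± 0.28 (adjusted p = 0.0714) and -0.95 ± 0.28 (adjusted p = 0.149). The first had adjusted p = 0.0290 without PS19_3 and 0.262 without PS19_1.

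The pair of tumour necrosis factor receptors behaved alike in sign. Tnfrsf1a, the widely expressed receptor that carries a death domain, measured 11.6, 7.84, 10.7 and 9.87 CPM in WT, 26.5, 17.1, 11.1 and 16.6 in PS19 and 10.4, 9.86, 16.03 and 10.5 in PS19_p16KO. PS19_1 stood apart from all others, PS19_3 lay within WT, and the choroid-rich PS19_p16KO_3 lay within PS19. Tnfrsf1b, the receptor typical of microglia and other immune cells, measured 4.56, 4.57, 5.29 and 3.77 CPM in WT, 8.98, 7.33, 5.11 and 7.18 in PS19 and 6.45, 4.35, 5.63 and 4.27 in PS19_p16KO, with overlap in both comparisons through PS19_3. Differences from WT were 0.83 ± 0.22 (adjusted p = 0.0786) and 0.65 ± 0.17 (adjusted p = 0.0651), and those of PS19_p16KO from PS19 were -0.60 ± 0.22 (adjusted p = 0.339) and -0.46 ± 0.17 (adjusted p = 0.351). Without PS19_3, the lowest PS19 library for both genes, Tnfrsf1a passed in both (adjusted p = 0.00518 and 0.0403) and Tnfrsf1b in the first (0.00981). With other libraries left out in turn, these adjusted p-values reached 0.269 and 0.633 for Tnfrsf1a and 0.322 for Tnfrsf1b. Of the 12 microglial markers, 9 were called higher in PS19 than in WT and 5 lower in PS19_p16KO than in PS19, and their part in the receptor values was not tested.

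**Figure D4:**
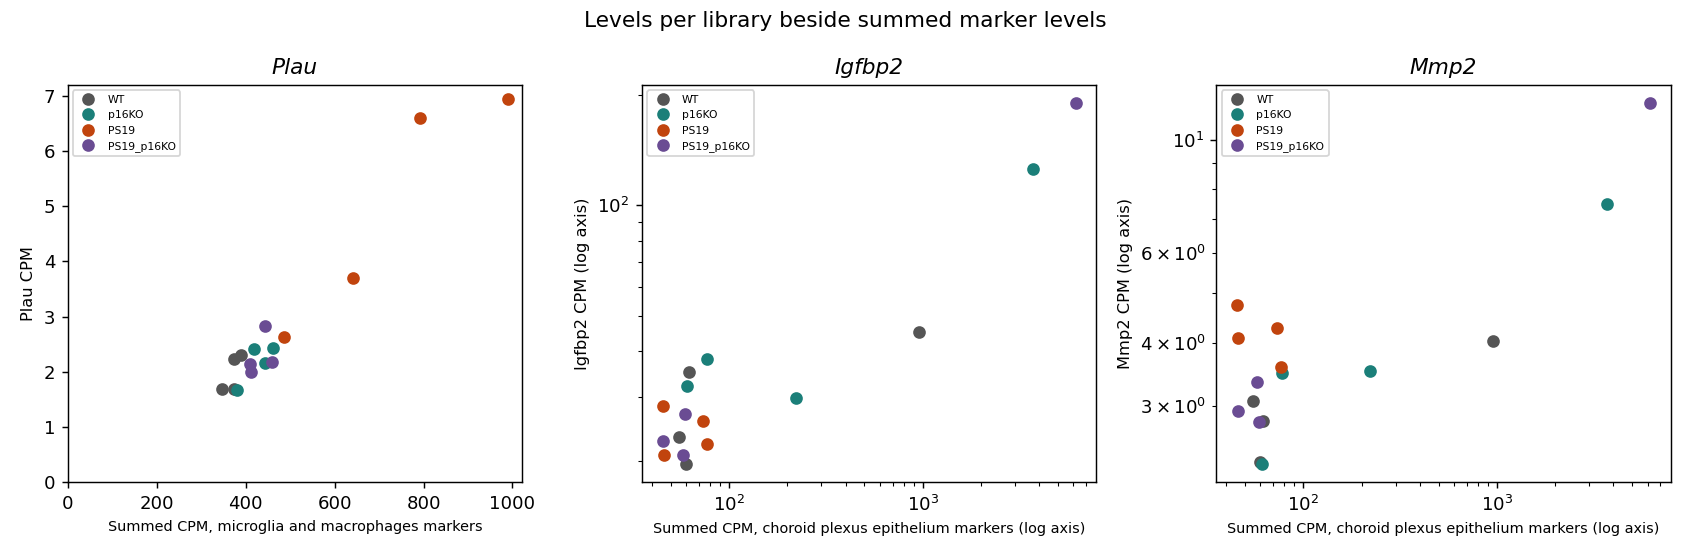
Plau CPM beside the summed CPM of 12 microglia and macrophage markers, and Igfbp2 and Mmp2 CPM beside the summed CPM of 12 choroid plexus markers (log axes), one point per library. The 2 libraries highest for Plau, PS19_1 and PS19_2, are the 2 highest in microglial markers, and the 3 choroid-rich libraries hold the highest Igfbp2 levels, 45.2, 125 and 190.2 CPM.

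The IGF-binding proteins, which hold IGF away from its receptor, gave no call in any comparison. Igfbp5, the most abundant per length, measured 225, 194, 210.4 and 197 CPM in WT and 273, 296, 209.6 and 222 in PS19, with PS19_1 and PS19_2 above the other libraries of the study. The difference of 0.27 ± 0.083 did not pass (adjusted p = 0.144), nor did -0.23 ± 0.083 in PS19_p16KO against PS19 (adjusted p = 0.333). Without PS19_3, the lowest PS19 library, both passed (adjusted p = 0.0154 and 0.0476). With other libraries left out in turn, adjusted p reached 0.516 and 0.832. Igfbp2 was highest in the 3 choroid-rich libraries, at 45.2 CPM in WT_1, 125 in p16KO_4 and 190.2 in PS19_p16KO_3 against 19.6 to 38.0 in the other 13 libraries. Its difference between PS19_p16KO and PS19 was 1.42 ± 0.74 with all libraries and -0.022 ± 0.18 without those 3, and neither passed (adjusted p = 0.660 and 0.990). Igfbp7, a binding protein of vessels, measured 11.2 to 16.4 CPM in them against 6.87 to 11.3. Igfbp3, Igfbp4 and Igfbp6 had intervals of -0.33 to 0.22, -0.062 to 0.30 and -0.48 to 0.14 for PS19 against WT.

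Of the matrix proteases and inhibitors, none of the 4 tested genes was called. Timp2 measured 344 ± 39.1 CPM in WT and 356 ± 38.8 in PS19 (SD, n = 4), with an interval of -0.17 to 0.25 for the log2 difference. Timp3, an inhibitor that stays bound to the matrix, had an interval of -0.23 to 0.34, and was highest in the 3 choroid-rich libraries, at 80.6 to 88.7 CPM. Mmp2, a gelatinase of fibroblasts and vessel cells, stood at 11.8 CPM in PS19_p16KO_3, 7.47 in p16KO_4 and 4.03 in WT_1. In the 13 libraries low in choroid markers it measured 2.31 to 4.73, a range that holds the WT_1 value. Over those 13 its difference between PS19 and WT was 0.59 ± 0.19 (adjusted p = 0.147), against 0.44 ± 0.45 with all 16. Mmp14, the membrane-bound protease that activates Mmp2, differed by -0.16 ± 0.10 (adjusted p = 0.721) and 0.23 ± 0.10 (adjusted p = 0.550).

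The 3 nuclear genes gave no call in any comparison. Lmnb1, lamin B1, which many senescent cells lose, measured 8.72 ± 0.823 CPM in WT, 9.06 ± 0.852 in p16KO, 8.77 ± 1.05 in PS19 and 8.28 ± 1.13 in PS19_p16KO (SD, n = 4). The interval of its log2 difference between PS19 and WT was -0.25 to 0.26. Hmgb1, a chromatin protein that acts as an alarm signal once released, and Ets2, a transcription factor that can induce Cdkn2a, had intervals of -0.12 to 0.069 and -0.20 to 0.088.

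Besides Ereg, 6 members fell below the expression filter and are given as raw counts in replicate order. Mmp12, macrophage elastase, had 3, 4, 1 and 0 counts in WT, 0, 0, 0 and 1 in p16KO, 12, 13, 2 and 8 in PS19 and 0, 0, 1 and 1 in PS19_p16KO. Every PS19 library held more than any PS19_p16KO library, and PS19_3 lay within WT. In an edgeR fit without the filter, Mmp12 was called lower in PS19_p16KO than in PS19 (adjusted p = 0.03545), on 35 counts against 2, and the other 5 were called in no comparison. Timp1, an inhibitor of metalloproteases induced in reactive glia, had 2, 3, 2 and 3 counts in WT, 9, 8, 3 and 1 in p16KO, 24, 17, 2 and 7 in PS19 and 2, 1, 4 and 1 in PS19_p16KO, high in PS19_1 and PS19_2, with adjusted p = 0.0615 against WT and 0.0508 for PS19_p16KO against PS19 in the fit without the filter. Gdf15, a stress-induced cytokine, peaked in 2 of the choroid-rich libraries, with 21 counts in PS19_p16KO_3 and 11 in p16KO_4 against 1 to 5 elsewhere. Tnf had 0 to 9 counts a library, Areg, a ligand of the epidermal growth factor receptor, 0 to 4, and Il6 0 to 2. For Ereg, 0 of 313221715 counts over all libraries allows at most 3 counts, or 0.00958 CPM, by counting error alone.

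**Figure D5:**
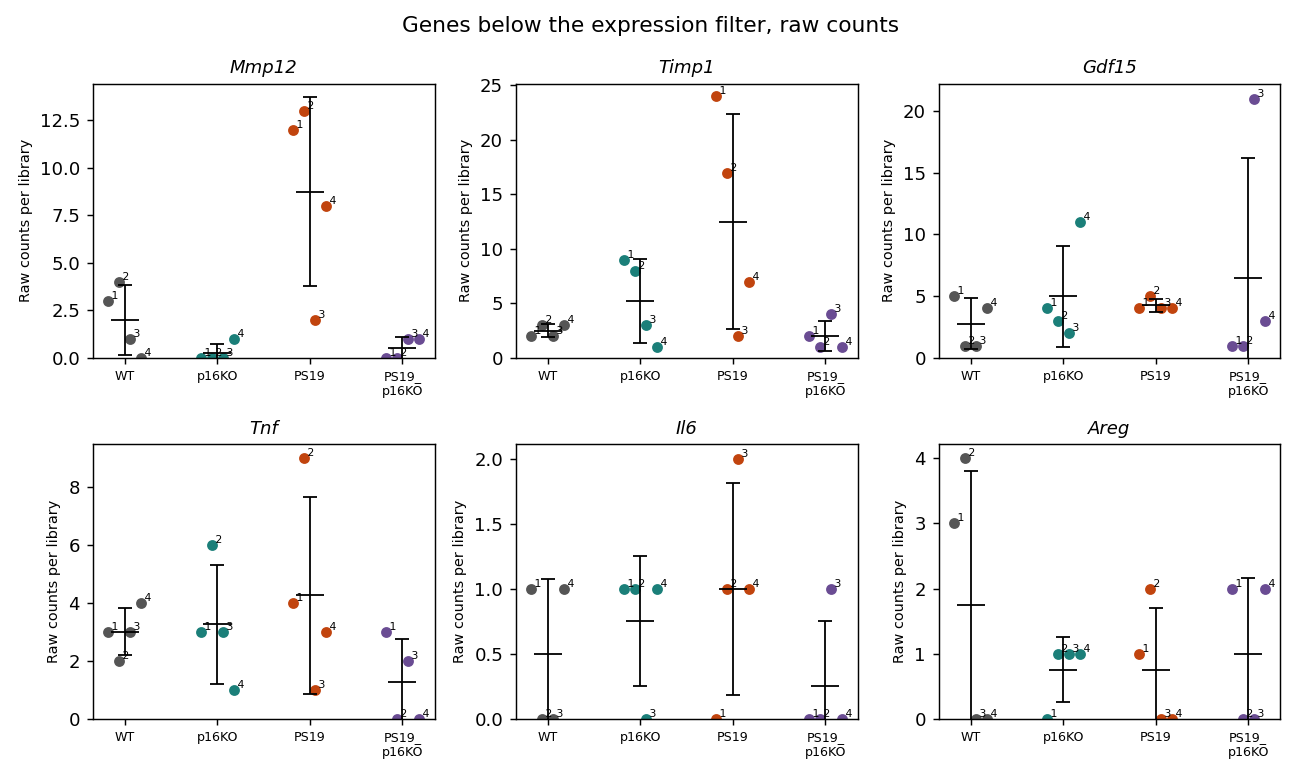
Raw counts per library of the 6 members below the expression filter, points numbered by replicate, bars the mean ± SD of 4 libraries (cut at 0). PS19_1 and PS19_2 hold the most counts of Mmp12 (12 and 13) and Timp1 (24 and 17), and PS19_p16KO_3 the most of Gdf15 (21).

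No member passed the threshold for loss of p16 without the transgene. By count, 0 of 28 members were called in p16KO against WT by the edgeR quasi-likelihood test, 0 by DESeq2 and 0 by limma-voom. Over all genes, 0% were called by edgeR, 18 genes by DESeq2 and 11 by limma-voom. By edgeR, 1 member had an unadjusted p under 0.05 (653 of 16372 genes). That member was Vegfa, at 41.9, 36.1, 37.1 and 40.5 CPM in p16KO against 35.2, 31.2, 33.0 and 34.8 in WT. These libraries did not overlap, which 1.75% of all genes showed in that direction, while 0 members lay wholly below WT (1.24% of genes), and the difference was 0.21 ± 0.10 (adjusted p = 0.999). The transgene on the p16KO background, PS19_p16KO against p16KO, also gave 0 calls of 28 by edgeR, by DESeq2 and by limma-voom (0.0183% of all genes by edgeR), and 0 members had groups without overlap, where 1.18% of genes were wholly higher and 1.47% wholly lower. The 1 member with an unadjusted p under 0.05, against 598 of all genes, was Angpt1, with a difference of -0.32 ± 0.14 (adjusted p = 0.999). Plau and Tgfb1 differed there by 0.086 ± 0.26 and 0.19 ± 0.18, with intervals of -0.46 to 0.63 and -0.19 to 0.57.

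Whether the transgene's effect differs with p16 was tested as the interaction of the genotypes. No member of 28 was called by edgeR, where 0.00611% of all genes were, and 9 had an unadjusted p under 0.05 (890 of all genes). DESeq2 called 1, Angpt1, and limma-voom 0. Angpt1 had an interaction of -0.83 ± 0.20 on the log2 scale (adjusted p = 0.150), Plau -1.23 ± 0.36 (0.297), Fas -1.36 ± 0.40 (0.297), Icam1 -1.02 ± 0.33 (0.383), Tnfrsf1a -0.76 ± 0.31 (0.766) and Tgfb1 -0.65 ± 0.25 (0.667). Without PS19_3, 4 members passed: Angpt1 (adjusted p = 0.0253), Icam1 (0.0350), Igfbp5 (0.0381) and Plau (0.0265). No member passed when any other library was left out. PS19_3 was the PS19 library with the lowest microglial marker sum.

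Genes of the same pathways outside the set were read from the same fit. Their lists were chosen with earlier results of these data known, so the shares called are a description and no test of enrichment. Of 74 receptors, ligands and partners of the members, 69 were tested, and 5 were called higher in PS19 than in WT, none lower, with a median of 0.04, where 1.56% of all genes were called higher. They were Itgb2, the integrin chain that binds Icam1 (1.37 ± 0.21, adjusted p = 0.00221), the receptors for Tgfb1, Tgfbr2 (0.80 ± 0.13, 0.00338) and Tgfbr1 (0.71 ± 0.12, 0.00338), St14, a membrane serine protease (2.18 ± 0.46, 0.0140), and Il6ra, the receptor chain for Il6 (0.49 ± 0.11, 0.0198). In PS19_p16KO against PS19, 3 were called lower, Itgb2 (-1.22 ± 0.21, 0.0109), Tgfbr2 (-0.67 ± 0.13, 0.0234) and Tgfbr1 (-0.58 ± 0.12, 0.0254), and none higher, with a median of -0.04, where 0.776% of all genes were called lower. Tgfb1 and both of its receptors were thus called higher in PS19. The first count was 3 without WT_3 or PS19_1, and the second was 5 without PS19_3, 1 without PS19_1 or PS19_p16KO_1, and 0 without PS19_2, PS19_p16KO_2 or PS19_p16KO_4.

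A further list of 47 secretory phenotype genes was also chosen with earlier results of these data known. Of these, 35 were tested, with a median of 0.19 in PS19 against WT. In that comparison 6 were called higher and none lower, where 1.56% of all genes were called higher. The chemokines Cxcl16 (1.61 ± 0.31, adjusted p = 0.00713) and Cxcl10 (1.62 ± 0.36, 0.0212) had the largest values among them, followed by Gpnmb, a lysosome-linked glycoprotein of macrophages (1.04 ± 0.24, 0.0418), the receptor kinase Axl (0.72 ± 0.11, 0.00282), Csf1, the growth factor of microglia (0.50 ± 0.10, 0.0115), and the protease Ctsb (0.40 ± 0.074, 0.00549). In PS19_p16KO against PS19, 5 were called lower and none higher, with a median of -0.24, where 0.776% of all genes were called lower. Among them were Ccl3, a chemokine (-1.82 ± 0.41, 0.0374), Cxcl10 (-1.55 ± 0.36, 0.0458), Gpnmb (-1.16 ± 0.24, 0.0369) and Axl (-0.63 ± 0.11, 0.0170). Neither list had a call in p16KO against WT, in PS19_p16KO against p16KO or in the interaction. The first count was 3 without PS19_1 or PS19_2, and the second was 9 without PS19_3, 2 without PS19_p16KO_1, 1 without PS19_p16KO_3, and 0 without PS19_1, PS19_2, PS19_p16KO_2 or PS19_p16KO_4. All these calls moved in the direction of the microglial markers, as did most genes called. In PS19 against WT, 255 of 264 called genes were higher, and in PS19_p16KO against PS19, 127 of 135 were lower. The part of microglial RNA in the result was not tested.

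The genes most like the called members, and like Icam1 and Igfbp2, which were not called, were taken by Pearson correlation of log2 CPM over the 16 libraries, as a description in which the points share genotype groups and library depth. Among the genes closest to Plau were Irf8 (0.960), Plek (0.959), Cd68 (0.957) and Ly86 (0.956). Tgfb1 was closest to Klhl6 (0.946), Hcls1 (0.928), Irgm1 (0.927), Man2b1 (0.918) and Serpinf2 (0.912). Angpt1 was closest to Msn (0.908), Icam1 (0.897), Ticam2 (0.885), Cd44 (0.882) and Tns3 (0.872), and thus to another member, Icam1, whose own nearest genes were Msn (0.966), Cd44 (0.952), Anxa5 (0.941), Arpc1b (0.941) and Vim (0.940). Igfbp2 was closest to Cgnl1 (0.981), Gpx8 (0.974), Ace (0.973), Ltc4s (0.967) and Cdkn1c (0.964). The Igfbp2 values include the 3 choroid-rich libraries, where its levels were highest. By rank (Spearman), the pairs named here ran from 0.591 (Tgfb1 with Man2b1) to 0.909 (Angpt1 with Ticam2).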

How the data were processed

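The authors deposited 1 table of raw counts per gene for 16 hippocampal libraries, with 92 rows of ERCC spike-ins that were left out here and held 0.574% to 1.06% of a library's counts. The submitters' processing notes name GRCm38 and, in no stated role or order, DESeq2, Subread 1.5.2 with featureCounts, STAR 2.5.2b and Trimmomatic 0.36. The sources used here give neither the annotation release nor the strand setting. Symbols, positions and exon lengths came from a GENCODE annotation of GRCm38, matched on Ensembl identifiers, and 49412 of 49671 gene rows had a symbol.

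Groups came from the labels. The members and lists were chosen with earlier results of these data known. Counts were fitted with edgeR 4.0.16 in R 4.3.3 (filterByExpr with a minimum count of 10, TMM, robust quasi-likelihood, 1 mean per group, all 16 libraries), which left 16372 genes and 28 of the 34 kept members. Of these, 26 passed the filter's level in all 16 libraries, Plaur in 14 and Il15 in 13. P-values were adjusted by Benjamini-Hochberg with a threshold of 0.05, and standard errors come from the F statistic. The procedure was also run on simulated counts, drawn independently for each gene with the same spread in every group. The outcome of that run is not given here and is no check on the calls in these data. Each of these settings was also tried alone: leaving out each library, fitting only the groups compared, a block for the replicate number, a batch term for the suffix digit in library names, DESeq2 1.42.0, limma-voom (limma 3.58.1) with quality weights, RLE scaling, dispersion without robust fitting, no filter, and a filter on CPM (above 1 in at least 4 libraries). Leaving out the 3 libraries with choroid plexus markers above 500 CPM was added after seeing the data. All kept members are named, in full where called or where groups do not overlap; of the other pathway lists, up to 6 called genes per comparison with the smallest adjusted p. A few genes that these rules name are not reported here. Promoters are from RefSeq. Intervals for counts cover counting error only.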

Additional observations from a re-analysis of the deposited data

Results flagged for a closer look

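Within the groups of 4 libraries, 17 of 136 member and group sets had 1 library far from the other 3 by Dixon's criterion. Chance exceeds it in about 1 of 20 sets of continuous values, a rate that does not hold for the 5 sets of 0 to 5 counts each (Mmp12 in p16KO, Il6 in p16KO and PS19_p16KO, Areg in p16KO and Gdf15 in PS19), so no share is compared with it. Of the 17, 7 fell in PS19_p16KO_3, the library richest in choroid plexus markers. There Igfbp2 stood at 190.2 CPM against 20.8 to 27.0 in the other 3, Mmp2 at 11.8 against 2.80 to 3.35, Gdf15 at 1.13 against 0.0474 to 0.162, Igfbp3 at 25.1 against 17.0 to 18.1, Tgfb1 at 6.70 against 4.299 to 4.49, Tnfrsf1a at 16.03 against 9.86 to 10.55, and Il6 at 0.0536, a single count, against 0. In p16KO_4, also choroid-rich, Igfbp2 stood at 125 CPM against 29.8 to 38.0, Gdf15 at 0.575 against 0.103 to 0.180, Mmp12 at 0.0523, a single count, against 0, and Serpine2 was low, at 135 against 158 to 159.

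The other 6 sets were at or near the limit of counting, or small in size. In p16KO_1, Plaur was at 0.270 CPM against 0.769 to 0.784 in the other 3, and Areg was at 0 against 0.0513 to 0.0523. In p16KO_3, Il6 was at 0 against 0.0450 to 0.0523, and in p16KO_2, Fgf2 was at 11.3 against 9.10 to 9.44. In PS19_2, Gdf15 was at 0.243 against 0.214 to 0.215. In WT_3, Hgf was at 3.49 against 4.296 to 4.39.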

How the results depend on the processing

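In PS19 against WT, 2 of 28 members were called, 7 by DESeq2 (Plau, Tgfb1, Angpt1, Fas, Icam1, Tnfrsf1a and Tnfrsf1b), 4 without the filter, 0 with only the groups compared, 3 without the choroid-rich libraries, and 1 to 9 when each library was left out. In PS19_p16KO against PS19, 2 were called, 4 by DESeq2, 1 by limma-voom and 1 with the suffix digit as a batch (Plau lost in both), 5 without the filter (Mmp12 among them), 0 with only the groups compared, and 0 to 7 when each library was left out. The interaction gave 0, 1 by DESeq2, and 0 to 4 when each library was left out. The cause of these differences was not tested, except that a fit of only the groups compared holds fewer samples. No member was called in p16KO against WT or in PS19_p16KO against p16KO under any alternative run. Over all genes, the calls in PS19 against WT (264), PS19_p16KO against PS19 (135) and the interaction (1) were 390, 272 and 86 by DESeq2, 70 and 8 with only the groups compared, and 124 to 438, 29 to 347 and 1 to 160 when each library was left out. Limma-voom and the suffix digit as a batch gave 77 and 87 calls in PS19_p16KO against PS19, and leaving out the choroid-rich libraries 62. The interaction had 20 calls without the filter, 13 with the suffix digit as a batch, 6 with RLE scaling and 0 by limma-voom. In p16KO against WT, 0 genes were called, 18 by DESeq2, 11 by limma-voom, 9 with only the groups compared, 7 without the choroid-rich libraries and 4 without the filter, with 0 to 2 when each library was left out, and in PS19_p16KO against p16KO 3, with 7 by DESeq2 and 2 to 5 when each library was left out. With the replicate number as a block, the members called were 2, 2, 0, 0 and 0 in the 5 comparisons, the same counts as without it. All genes called were then 238, 134, 0, 4 and 5. Libraries with the same number had a median correlation of deviations of -0.028 over 24 pairs (-0.39 to 0.22). Of the 16 libraries, 4 were closest to their own number. These values show no sign of pairing by number but cannot exclude it. Fitted directions were followed for 9 members (Plau, Tgfb1, Angpt1, Icam1, Fas, Tnfrsf1a, Tnfrsf1b, Igfbp5 and Serpine2), each only in comparisons where at least 1 run called it. None was reversed under the alternatives run. That choice, and libraries shared between the runs, left little room for a reversal, so this is no check on the directions. With 16 libraries of about equal depth, 6 members fell below the filter, and a difference that missed the threshold is not shown to be absent.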
